A study of Mus musculus with 36 samples.

Results

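The regions described here were the 6651 of 71509 chromatin accessibility peaks (9.3%) that opened most strongly when naive CD4 T cells became activated conventional T cells (Tconv) in mice. Members were selected on measured accessibility, by a mean log2 CPM that was more than 3 higher in the 3 HP1α WT Tconv libraries than in the 3 HP1α WT naive libraries. Log2 CPM is the log2 of counts per 1000000 reads in the peaks of that library, so that 0 stands for about 1 read per 1000000. A prior count of 2, scaled to the depth of each library, was added. These 6 libraries chose the members and were used in no test. The difference ended just above 3 (3.0004) at peaks nearest to Golga7 and Cdkn2b, while peaks nearest to Uap1 (2.9999) and Runx3 (2.9997) fell just outside. At the top of the list stood a peak nearest to Eif3h, with a difference of 7.50.

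The study asked how the heterochromatin proteins HP1γ and HP1α shape T cell chromatin and the response of T cells to regulatory T cells (Treg), and measured accessibility by ATAC-seq in 36 libraries, 3 in each of 12 groups. Naive cells were CD62L+ CD44-/low CD4 T cells from spleen before transfer. Tconv were donor TCR Vβ6+ cells sorted from the spleen 3 weeks after naive CD4 T cells had been given to irradiated hosts (CD45.1+ B6 or C57BL/6 J) grafted with equal amounts of B6D2F1 and C57BL/6 J bone marrow, and a further cell state came from hosts that also received ex vivo expanded Treg (Tconv with Treg). Donor mice were 6 to 12 weeks old, sex-matched and of mixed 129/Sv x C57BL/6 background. HP1γ KO donors were Hp1g flox/flox with Cd4-cre, which deletes the gene in T cells only and from their development on, and their WT controls were littermates with the flox alleles and no cre. HP1α KO donors were germline Hp1a-/- and their WT controls were Hp1a+/+ littermates. All Tconv groups thus shared irradiation, the mixed graft and the sort on a single TCR chain. The labels do not say whether libraries of a group came from separate mice, so p-values measure only the spread between these samples.

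When a naive CD4 T cell meets its antigen, T cell receptor signalling brings factors such as NFAT, AP-1 (JUN with FOS or BATF) and IRF4 to closed chromatin, and enhancers near cytokine, chemokine receptor and effector regulator genes open, often far from the promoter. RUNX and T-box factors then maintain many of these sites in effector cells. HP1γ, encoded by Cbx3, is a chromodomain protein that reads methylated histone H3 lysine 9, the mark of condensed chromatin, and is known as a brake on genes that should stay silent.

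The peak centres below stand for the kinds of region that the results turn on, and were chosen after their values had been seen. Each is the 300 bases around the centre of a member, on the plus strand of GRCm39. Capitals mark 4 motifs on either strand, which are AP-1 (TGANTCA), the BATF-IRF composite (TTTC, 4 further bases and AP-1, which it contains), T-box (AGGTGTGA) and RUNX (AACCACA). Il10, Ifng and Itga1 show members that opened near effector genes. The Il10 and Ifng regions lie between genes, 8.44 kb and 4.90 kb from the nearest coding start site, and the Itga1 region lies between genes at 4.96 kb.
Il10, chr1:130938326-130938625: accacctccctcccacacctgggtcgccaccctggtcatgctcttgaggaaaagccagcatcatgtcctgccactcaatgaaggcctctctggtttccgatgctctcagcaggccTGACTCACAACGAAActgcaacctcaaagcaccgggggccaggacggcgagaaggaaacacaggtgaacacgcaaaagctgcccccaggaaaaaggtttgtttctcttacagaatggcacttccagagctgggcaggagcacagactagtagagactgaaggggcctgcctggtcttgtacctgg
Ifng, chr10:118271326-118271625: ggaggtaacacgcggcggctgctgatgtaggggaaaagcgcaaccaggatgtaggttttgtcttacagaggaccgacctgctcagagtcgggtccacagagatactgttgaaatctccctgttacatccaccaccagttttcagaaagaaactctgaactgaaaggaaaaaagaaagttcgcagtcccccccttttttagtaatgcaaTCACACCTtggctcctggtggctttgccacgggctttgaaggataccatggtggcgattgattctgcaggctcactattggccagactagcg
Itga1, chr13:115244071-115244370: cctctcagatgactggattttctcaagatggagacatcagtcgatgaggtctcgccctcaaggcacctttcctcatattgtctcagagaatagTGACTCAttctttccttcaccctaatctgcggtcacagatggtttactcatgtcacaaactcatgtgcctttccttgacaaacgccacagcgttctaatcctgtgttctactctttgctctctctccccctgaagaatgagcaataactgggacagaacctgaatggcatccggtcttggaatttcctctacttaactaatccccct
Eea1, Rassf6 and Prdm1 show members that were more open in HP1γ KO than in WT Tconv with Treg. The Eea1 region lies between genes, and the Rassf6 and Prdm1 regions lie in introns of long noncoding RNA genes.
Eea1, chr10:95750391-95750690: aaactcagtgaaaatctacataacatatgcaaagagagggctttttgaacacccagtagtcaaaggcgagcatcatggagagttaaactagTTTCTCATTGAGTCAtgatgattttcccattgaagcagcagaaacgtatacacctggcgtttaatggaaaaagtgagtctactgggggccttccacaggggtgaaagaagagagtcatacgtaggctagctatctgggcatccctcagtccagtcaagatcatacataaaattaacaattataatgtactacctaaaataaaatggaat
Rassf6, chr5:90825441-90825740: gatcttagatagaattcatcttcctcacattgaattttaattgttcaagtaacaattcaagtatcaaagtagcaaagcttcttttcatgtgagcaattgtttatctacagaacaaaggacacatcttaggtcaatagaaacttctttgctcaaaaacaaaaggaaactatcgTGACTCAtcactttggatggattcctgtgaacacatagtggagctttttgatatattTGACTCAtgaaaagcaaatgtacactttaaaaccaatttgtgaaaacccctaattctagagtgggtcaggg
Prdm1, chr10:44576136-44576435: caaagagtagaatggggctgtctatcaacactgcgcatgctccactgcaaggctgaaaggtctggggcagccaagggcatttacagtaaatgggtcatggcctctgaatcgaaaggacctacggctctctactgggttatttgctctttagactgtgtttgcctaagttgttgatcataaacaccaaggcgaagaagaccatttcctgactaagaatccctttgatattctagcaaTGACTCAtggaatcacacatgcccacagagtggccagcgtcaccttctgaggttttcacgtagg
Id2 and Gzmb show members that were less open in the same comparison, in an intron of a long noncoding RNA gene and between genes, and both windows reach slightly beyond their peaks, which are 260 and 240 bases wide.
Id2, chr12:25402871-25403170: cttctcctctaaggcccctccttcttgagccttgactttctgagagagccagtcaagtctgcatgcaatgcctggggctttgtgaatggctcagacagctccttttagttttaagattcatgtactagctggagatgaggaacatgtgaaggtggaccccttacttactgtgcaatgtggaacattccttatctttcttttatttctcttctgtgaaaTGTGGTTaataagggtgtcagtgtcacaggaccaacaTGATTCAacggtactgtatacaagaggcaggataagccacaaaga
Gzmb, chr14:56503531-56503830: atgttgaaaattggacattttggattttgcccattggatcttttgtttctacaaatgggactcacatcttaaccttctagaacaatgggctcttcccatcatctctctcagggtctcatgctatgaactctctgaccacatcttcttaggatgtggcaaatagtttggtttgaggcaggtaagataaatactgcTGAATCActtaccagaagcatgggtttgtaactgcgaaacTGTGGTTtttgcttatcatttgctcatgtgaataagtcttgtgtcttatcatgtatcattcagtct
The Trpm6 region, in an intron of that gene, was the only peak of the table with a called interaction of genotype and Treg.
Trpm6, chr19:18743851-18744150: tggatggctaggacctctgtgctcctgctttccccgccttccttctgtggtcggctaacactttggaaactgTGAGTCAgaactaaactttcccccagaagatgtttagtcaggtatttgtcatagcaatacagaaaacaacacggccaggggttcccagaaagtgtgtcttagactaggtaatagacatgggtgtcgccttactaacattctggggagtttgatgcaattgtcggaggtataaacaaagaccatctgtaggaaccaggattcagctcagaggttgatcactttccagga

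Library depth was 19.4 to 90.3 M reads in peaks for HP1γ and 1.49 to 96.8 M for HP1α, where M is 1000000. The study left out 3 HP1α libraries from hosts given Treg, and the HP1α Treg libraries were not tested here. The deletion of Cbx3 could not be read from these files, since no peak had Cbx3 as its nearest gene. The peak at the Cd4 promoter gave 86.8 to 109 CPM in the 9 HP1γ WT libraries and 468 to 704 CPM in the 9 HP1γ KO libraries, which carry a transgene built from Cd4 regulatory sequence, so genotype labels and this peak went together in 18 of 18 libraries. The HP1α libraries gave 70.7 to 107 CPM there. CD4 T cell markers were present at their start sites in every group, with summed levels of 955 to 1820 CPM over 8 of 8 markers, Cd4 included, in the HP1γ libraries. Erythroid markers (4 of 6 with a start-site peak) summed to 7.44 to 18.1 CPM in the HP1γ libraries.

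**Figure D1:**
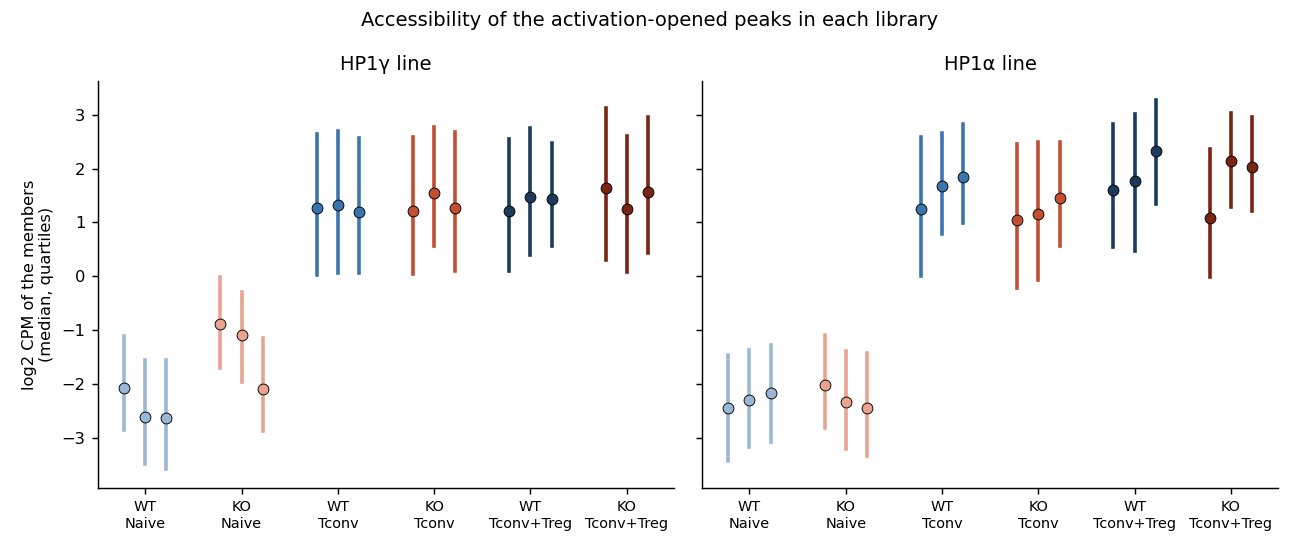
Log2 CPM of the 6651 members in each of the 36 libraries, by group, with the HP1γ line on the left and the HP1α line on the right (points, medians over members; bars, quartiles). In both lines every Tconv library stands above every naive library, but the HP1α WT naive and Tconv libraries chose the members, so their separation was set by the rule. In the HP1γ line the WT naive medians run from -2.63 to -2.07 and the WT Tconv medians from 1.19 to 1.32.

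In the HP1γ WT libraries, which had no part in the choice, the same regions were closed in naive cells and open in Tconv. The median member stood at -2.07, -2.61 and -2.63 log2 CPM in the 3 naive libraries and at 1.27, 1.32 and 1.19 in the 3 Tconv libraries, and the groups did not overlap. Members held 0.215% to 0.290% of the reads of each naive library and 3.95% to 4.29% of those of each Tconv library. The edgeR quasi-likelihood test, which called a peak if its adjusted p was below 0.05 and its log2 fold change beyond 1 in either direction, found 6423 of 6651 members higher in Tconv (96.6%) and 3 lower, against 24.5% and 22% of all 71508 peaks tested. The median log2 fold change of the members was 3.99, against 0.08 for all peaks. All 6651 members passed the filter on low counts in the HP1γ libraries, and 225 were called in neither direction. Naive counts were low, with a median of 10 to 14 reads per member and library, against 122 to 164 reads in Tconv. For 359 members each naive library held at most 3 reads, and 18 members had none at all. With these 18 set to their lower bound (a floor of 3 reads in each naive library) the median was 3.98. In pooled cells, more cells with an open region and a more open region in each cell cannot be told apart. Markers of other cell types moved with activation too. Summed start-site levels went from 32.6 to 33.9 CPM in WT naive cells to 57.5 to 65.7 CPM in WT Tconv for myeloid markers (5 of 10 with a start-site peak), from 7.39 to 8.39 to 8.45 to 13.6 CPM for B cell markers (2 of 8), and from 31 to 35.3 down to 18.4 to 22.8 CPM for CD8 T and NK cell markers (4 of 7), with no overlap in any of the 3. Erythroid markers (4 of 6) went from 12.7 to 12.9 down to 7.44 to 11.3 CPM, also without overlap. No start-site peak was found for the myeloid markers Lyz2 and Adgre1 or for Cd8a. The part of these markers in the result was not tested.

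The 3 members that went against the rule were a peak nearest to Gm12253 (log2 fold change -1.83 ± 0.72 SE, adjusted p = 0.0301) and 2 neighbouring peaks on chromosome 6 whose nearest coding gene, Ndufa4, lies 1220 kb away (-4.49 ± 0.91 and -6.59 ± 1.23). The Gm12253 call was lost without either of 2 naive or 2 Tconv libraries (WT naive replicates 1 and 3, WT Tconv replicates 2 and 3). For the wider of that pair, the HP1γ WT naive libraries stood at 2.41, 1.06 and 0.91 log2 CPM and the Tconv libraries at -4.67, -3.05 and -4.67. In the HP1α WT naive libraries, which entered the rule, the same peak stood at -3.17, -4.34 and -3.07. KO naive libraries were spread widely there, at -1.58, 1.45 and -3.32 for HP1γ and -4.21, 0.85 and -3.52 for HP1α, and overlapped between the colonies. At Gm12253 the HP1γ WT naive libraries themselves were split, at 1.34, -3.96 and 1.23.

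Cytokine genes held many of the strongly opened regions. Of 223 peaks nearest to 24 effector cytokine genes, 95 were members (42.6%, against 9.3% of all peaks), at 18 of 25 genes listed, and 95 of 95 opened in HP1γ WT Tconv, with a median log2 fold change of 4.59. For each gene, the strongest region means the member with the largest HP1α rule difference, which need not have the largest fold change in the HP1γ libraries. The strongest region of Ifng, the cytokine of type 1 responses, stood at -0.72, -2.06 and -1.16 log2 CPM in WT naive cells and at 4.59, 4.49 and 4.80 in WT Tconv. At Il10, an anti-inflammatory cytokine, the strongest of 13 members stood at -1.10, -1.67 and -1.56 in naive cells and at 4.02, 4.33 and 4.54 in Tconv. Naive and Tconv libraries did not overlap at either region, and the log2 fold changes were 6.06 ± 0.36 and 5.97 ± 0.37 (SE). Other members reached 7.02 at Ifng and 7.45 at Il10. Another Il10 member, 25 kb from the start site, had a small error, at 3.94 ± 0.12. The genes of this list with the next most members were Csf2, which encodes GM-CSF, and Tnfsf8, which encodes CD30 ligand, and they gave 5.91 ± 0.49 and 5.08 ± 0.35 at their strongest regions.

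Cytotoxic and chemokine genes also held many members. Among cytotoxic genes, 19 of 49 peaks were members (38.8%), and 18 of the 19 opened, with a median of 5.06. The strongest region of Gzmk, a granule protease, stood at -1.15, -2.50 and -1.82 log2 CPM in WT naive cells and at 5.51, 5.52 and 5.57 in WT Tconv, a log2 fold change of 7.55 ± 0.25. The other granzymes had strongest regions at 6.18 ± 0.51 for Gzma and 4.59 ± 0.45 for Gzmb, where another member reached 6.41, and the granule membrane gene Nkg7 had 5.34 ± 0.30 at its promoter. Chemokine ligands held the highest share of members of all lists, 34 of 60 peaks (56.7%), of which 34 opened, with a median of 5.46. Ccl1, Ccl5, Ccl9 and Ccl3, all of which attract leukocytes, had values of 6.87 ± 0.45, 6.43 ± 0.65, 7.22 ± 0.53 and 6.77 ± 0.64 at their strongest regions. Ccl9 and Ccl3 had at most 10 and 9 reads there in any WT naive library.

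Surface receptors showed the same direction. Chemokine receptor and homing genes held 78 members among 249 peaks (31.3%), and 78 of 78 opened, with a median of 4.54. Cxcr3, which guides T cells to inflamed tissue, had 6.24 ± 0.27 at its strongest region, Itga1, a collagen receptor subunit of tissue-resident cells, had 6.22 ± 0.33, and Cd44, the adhesion receptor that also defined the naive gate, had 4.88 ± 0.35. Inhibitory receptors held 32 members among 148 peaks (21.6%), 32 of which opened (median 4.52). Klrg1, a receptor of late effector cells, had members at 11 of its 12 peaks, and the strongest stood at -1.51, -3.96 and -2.74 in naive cells and at 4.43, 4.42 and 4.53 in Tconv, or 7.33 ± 0.34. Lilrb4a (6.44 ± 0.28 at its promoter), Entpd1, which encodes the ectonucleotidase CD39 (6.14 ± 0.46), and Havcr2, which encodes TIM-3 (4.42 ± 0.53), belonged to the same list. Cytokine receptors held 52 members among 217 peaks (24%), 51 of which opened (median 4.46), with the IL-33 receptor gene Il1rl1 at 7.83 ± 0.40. Costimulatory receptors held 16 of 168 (9.52%), close to the share of members among all peaks, and 16 of 16 opened (median 3.82). Among them were Slamf7 (5.05 ± 0.27) and Icos (3.94 ± 0.35).

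Transcription factor genes carried the largest groups of members. The 49 effector regulators listed held 292 members among 1074 peaks (27.2%) at 35 genes, and 291 opened, with a median of 4.36. Maf, a regulator of Il10, had 31 members over 658 kb. Rbpj, the nuclear partner of Notch, had 30 members over 278 kb, and its strongest region stood at -0.90, -3.13 and -2.36 log2 CPM in WT naive cells and at 5.46, 6.03 and 5.85 in WT Tconv, a log2 fold change of 7.99 ± 0.37. Runx2 had 30 members over 362 kb, Prdm1, which encodes BLIMP-1, had 22 over 363 kb and Id2, an inhibitor of E proteins, had 21 over 320 kb. Outside this list, Gas7 had 28 members among 28 peaks, Itpr1, an endoplasmic calcium channel, had 25 among 63, and Itgb1, the β1 integrin chain of the homing list, had 24 among 34. Genes of the naive state held few members, 7 among 598 peaks (1.17%) at 4 of 20 genes, although all 7 opened. A region 111 kb from Bach2, a repressor of effector genes, had the largest rule difference of the 4 Bach2 members and a log2 fold change of 4.27 ± 0.16 in the HP1γ WT libraries, where another Bach2 member reached 5.05. The lists were assigned by the nearest coding start site. With the nearest start site of any gene, both members and peaks fell. Members were then 39 of 80 peaks for cytokines (48.8%), 10 of 18 for chemokine ligands (55.6%) and 50 of 276 for transcription factors (18.1%).

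Members lay away from promoters. Of the 6651, 1279 (19.2%) were within 1 kb of the start site of any annotated gene, against 34% of all peaks. Introns held 52.9% of members against 42.9% of all peaks, intergenic sequence 22.3% against 17.4%, and exons 5.55% against 5.62%. The median member was 15.2 kb from the nearest coding start site, against 8.36 kb for all peaks, and was 650 bases wide, against 750. The 300 bases at the centre had a median GC content of 46.7%, against 48.7%, and a median of 3 CpG dinucleotides, against 4. Members also lay close together. For 3608 of them (54.2%) another member was within 20 kb, while 15.9% of the 64858 peaks that were not members had a member that near, and 267 of 3204 nearest coding genes had 5 or more members, which together took in 2141 members (32.2%). No gene was assigned to 12 members on unplaced contigs.

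Among 11 motifs searched, AP-1 had the widest gap in percentage points between members and all peaks. The letters TGANTCA stood in the central 300 bases of 25.4% of members and 13% of all peaks, and away from start sites in 26.2% and 15.3%. T-box letters stood in 4.68% against 1.99%, RUNX in 19.5% against 12.9%, and the BATF-IRF composite in 0.872% against 0.267%. NFAT (TGGAAA) stood in 29.5% against 23.7% of central windows, but over whole peaks the shares were 52.7% and 52.7%, or 52.6% and 46.9% away from start sites. The NFAT:AP-1 composite (GGAAA, 3 further bases and AP-1), which overlaps both parts, stood in 0.331% against 0.119%. Motifs that were less frequent in members were ETS (ACCGGAAGT, 0.135% against 0.443%), E-box (CAGCTG, 15.5% against 17.4%) and TCF-LEF (ATCAAAG, 5.19% against 5.76%). NR4A (AAAGGTCA) stood in 2.53% against 1.94%, and BLIMP-1 in 1.62% against 1.67%. Both strands were searched, and shares over whole peaks also move with the width of a peak.

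Few members were called between HP1γ KO and WT naive cells by the main test, although most stood higher in KO, and the number of calls depended on the method. The median member stood at -0.89, -1.09 and -2.10 log2 CPM in the 3 KO naive libraries and at -2.07, -2.61 and -2.63 in WT, so that 2 KO libraries stood above all WT libraries and the other KO library stood just below the highest of them. Depth moved with these levels, at 33.9, 32.4 and 82.4 M reads in KO and 70.5, 80.1 and 90.3 M in WT. The members' median log2 fold change was 1.03, against 0.03 for all peaks, and 94.1% of members lay above 0, against 54.8% of all peaks, but edgeR called only 5 members higher and 0 lower, against 0.133% and 0.00699% of all peaks, or 0.14% in either direction. With log2 depth as a covariate the median was 0.96 and 7 members were called, 5 higher and 2 lower. At an unadjusted p under 0.05 there were 839 members (12.6%, against 8.98% of all peaks). DESeq2 called 1611 (24.2% against 3.27%), and edgeR fitted to these groups alone called 568 of the 4808 members that passed its filter (11.8% against 1.59%). The 5 called members were nearest to Cfap53, Gh, Dnah12, Csnk1a1 and Unc79. At the Cfap53 region the WT naive libraries stood at -1.20, -2.06 and -1.71 and the KO naive libraries at 3.42, 3.52 and 3.57, or 5.36 ± 0.46 (adjusted p = 6.51e-06). At Gh, the growth hormone gene, the region stood at -2.58, -3.49 and -3.40 in WT and at 1.51, 1.27 and 1.43 in KO. At Unc79, which encodes a subunit of a sodium leak channel, it stood at 1.72, 1.86 and 1.53 in WT and at 3.44, 3.58 and 3.44 in KO. The groups did not overlap at any of these 3 regions. None of the effector lists had a called member in naive cells.

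In Tconv without Treg, members changed in both directions with HP1γ loss. Of 6651 members, 372 (5.59%) were higher and 438 (6.59%) lower in KO, against 1.69% and 1.66% of all peaks (3.35% in either direction), and the median was 0.03, against 0.02. The balance of directions rested on the scaling and on the method, with 45.9% of calls higher under TMM, 51.4% under library size alone, 36.2% after a GC correction and 32.8% after a loess correction on abundance. It turned to 133 higher and 33 lower in a fit of these groups alone, to 173 and 101 with the quasi-likelihood method of edgeR version 3, and to 321 and 258 with DESeq2. Calls also rested on single libraries and fell from 810 to 278 without KO Tconv replicate 3 (196 higher and 82 lower), to 382 without WT Tconv replicate 2 and to 474 without WT Tconv replicate 1.

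On the higher side, the 3 members with the smallest p-values were nearest to En1, Fgf9 and Gm3604. The region 241 kb from En1, a homeobox gene of the brain, stood at -0.66, -0.88 and -0.11 log2 CPM in WT Tconv and at 3.37, 3.38 and 3.68 in KO, or 4.07 ± 0.30 (adjusted p = 1.29e-07). The region 375 kb from Fgf9, a growth factor gene, stood at 1.22, 0.41 and 1.26 in WT and at 4.24, 4.23 and 4.41 in KO, or 3.26 ± 0.22. Both regions were fully separated between the genotypes, as was a region near the predicted gene Gm3604 (3.32 ± 0.22). On the lower side, regions of Manbal and of Ldha, lactate dehydrogenase A, gave -2.86 ± 0.38 and -2.71 ± 0.39.

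In 6 lists of effector genes, 51 members were called lower and 9 higher in KO Tconv. Of all members 6.59% were called lower and 5.59% higher, against 1.66% and 1.69% of all peaks. The lower shares of homing and inhibitory receptors were not above that of all members. Effector cytokines had 10 lower and 2 higher of 95, cytokine receptors 6 lower and 0 higher of 52, chemokine ligands 5 and 0 of 34, homing receptors 5 and 0 of 78, inhibitory receptors 1 and 0 of 32, and transcription factors 24 and 7 of 292. Costimulatory, cytotoxic and naive-state genes had no call. Without KO Tconv replicate 3 the 6 lists had 10 lower and 8 higher, and without WT Tconv replicate 2 they had 23 and 5. By the nearest start site of any gene, cytokines had 4 lower and 1 higher of 39, and cytokine receptors 6 and 0 of 29. Chemokine ligands then had 1 and 0 of 10, and homing receptors 2 and 0 of 34. Inhibitory receptors had 0 and 0 of 19, and transcription factors 3 and 1 of 50. Markers of CD8 T and NK cells stood at 18.4 to 22.8 CPM in WT and 13.9 to 16.2 CPM in KO, and their part in the result was not tested. The lower calls gathered at few loci, with 8 of 30 members of Rbpj, 5 of 13 of Il1rl1, 5 of 12 of Ccl1, 5 of 10 of Csf2 and 4 of 18 of Gata3, the regulator of type 2 responses. At the strongest Csf2 region WT Tconv stood at 2.26, 2.93 and 1.85 and KO Tconv at 1.28, 1.23 and 0.54, without overlap, a log2 fold change of -1.51 ± 0.29 (adjusted p = 0.00454). On the higher side, 6 members of Rad51b, a gene of homologous recombination, and 4 each of Prkca, protein kinase C alpha, and Eea1, an early endosome tether, were called, beside 1 lower at Eea1.

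**Figure D2:**
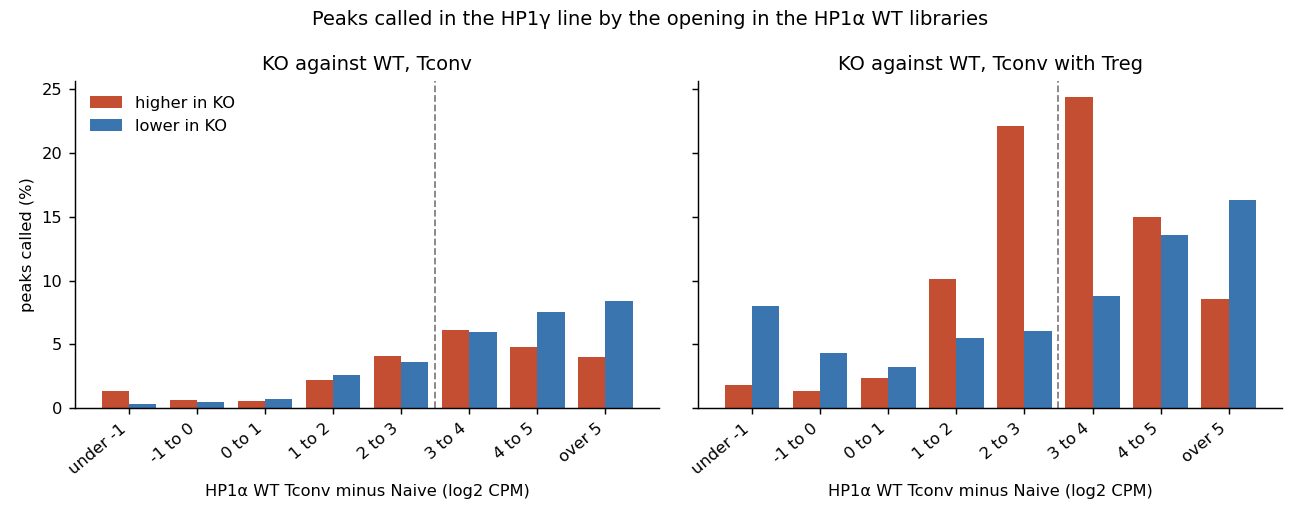
Percentage of peaks called higher (red) or lower (blue) in HP1γ KO than in WT, without Treg (left) and with Treg (right), by the difference in log2 CPM that defined the members, which lie right of the dashed line. With Treg the share called higher is 24.4% between 3 and 4 and 8.57% above 5, where 16.3% are lower.

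With Treg, more members were called between the HP1γ genotypes, and more of them were higher than lower in KO. Of 6651 members, 1372 (20.6%) were higher and 711 (10.7%) lower in KO, against 6.48% and 5.38% of all peaks (11.9% in either direction). The median was 0.20, against -0.02 for all peaks, and the quartiles of the members were -0.54 and 0.93. Higher calls outnumbered lower calls under every scaling tried, with 65.9% of calls higher under TMM, 58.9% under library size alone, 74.3% after the GC correction and 77% after the loess correction. Calls fell from 2083 to 1021 without WT Treg replicate 2 and to 1117 without KO Treg replicate 1. The former removed most of the lower calls, of which 179 were left beside 842 higher, and the latter left 325 lower beside 792 higher. With 1 library left out, counts ran from 278 to 1158 without Treg and from 1021 to 2669 with Treg, and these ranges overlapped. The test of whether the genotype difference itself changed with Treg called 1 member, against 0.0014% of all peaks, with a median of 0.15, so the counts do not show a larger difference with Treg. Of members called higher in KO without Treg, 291 were also called higher with Treg, which was 78.2% of the former and 21.2% of the latter. These comparisons set different libraries against each other but came from 1 fit, and the same overlap over all peaks was not counted. For lower members the overlap was 196, or 44.7% and 27.6%, and 2 members were called in opposite directions.

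The share of members called higher fell with the strength of opening, while the share called lower rose. Among members whose rule difference was 3 to 4, 24.4% were higher in KO with Treg and 8.8% lower. Between 4 and 5 the shares were 15% and 13.6%, and above 5 they were 8.57% and 16.3%. Weaker peaks outside the set, with differences of 2 to 3, gave 22.1% and 6.03%, and those of 0 to 1 gave 2.38% and 3.27%. Width moved with the calls as well, since members called higher had a median width of 800 bases, those called lower 520 and the uncalled 630. By width class, up to 300 bases, 9.54% were higher and 13.2% lower, and above 1200 bases 25% and 4.91%. The part of width in the result was not tested. Distance to a start site made little difference, with 21% higher and 9.7% lower within 1 kb and 20.5% and 10.9% farther away.

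Motif letters differed between the directions. AP-1 stood in the central window of 34% of members called higher and 15.5% of those called lower, NFAT in 36.9% and 23.5%, and the BATF-IRF composite in 1.97% and 0.422%. RUNX and T-box letters went the other way, at 16.3% and 23.1% for RUNX and 3.86% and 5.77% for T-box. The Tconv libraries without Treg were in the same fit but on neither side of this comparison. In them, members called higher with Treg had a median of 0.23 log2 CPM in WT and 1.29 in KO. Those called lower had 1.75 in WT and 1.05 in KO.

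**Figure D3:**
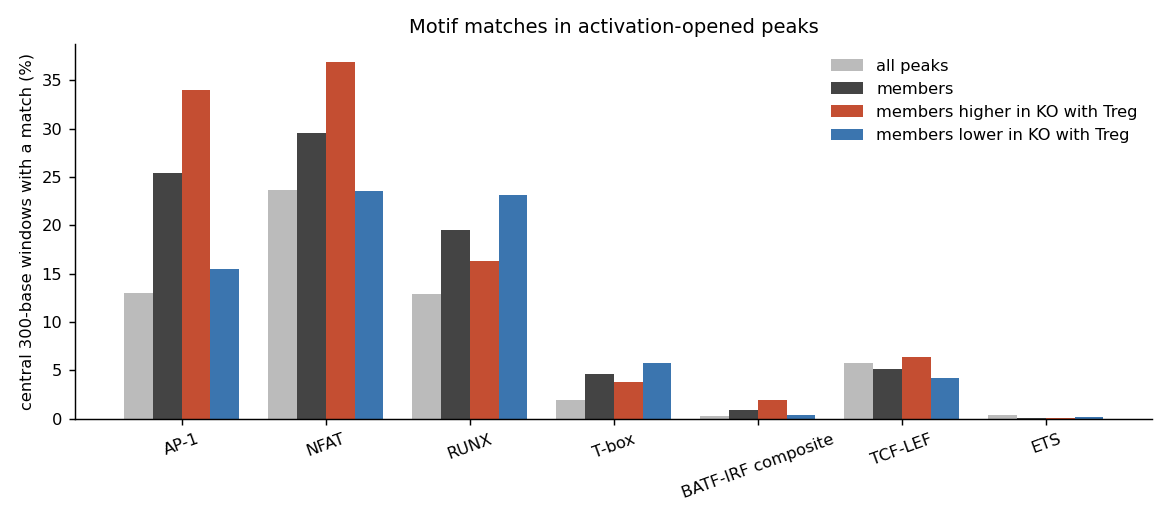
Percentage of central 300-base windows with at least 1 match to each of 7 motifs on either strand, for all peaks, members, and members called higher or lower in HP1γ KO with Treg. The bars for AP-1 rise from 13% of all peaks to 25.4% of members and 34% of members called higher, and stand at 15.5% for members called lower.

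Other cell types' markers moved with this comparison. Summed start-site levels of B cell markers (2 of 8 with a start-site peak, Pax5 and Ebf1) were 9.66 to 14.5 CPM in WT and 15.3 to 18.8 CPM in KO, and those of myeloid markers (5 of 10) were 62.2 to 67.8 and 71.5 to 98.1 CPM. Markers of CD8 T and NK cells (4 of 7) were 13.7 to 29.4 CPM in WT and 9.65 to 11.6 CPM in KO. No start-site peak was found for 6 B cell markers, which included Cd79a and Ms4a1. The B cell, myeloid, CD8 T and NK, and CD4 T marker genes had 4 members each, of 26, 38, 25 and 70 peaks, and erythroid genes had 0 of 8. Calls were 3 higher and 0 lower at B cell genes, 2 and 1 at myeloid genes, 0 and 2 at CD8 T and NK genes, and 0 and 0 at CD4 T genes. They included a Pax5 region at 1.91 ± 0.31 and a Klrk1 region at -2.47 ± 0.59, where WT Treg replicate 2 stood at 3.87 log2 CPM and the other two WT libraries at 1.55 and 1.82. Without that library it gave -1.22 and was not called. The part of these markers in the result was not tested.

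Some of the members more open in KO with Treg gathered at certain genes. At Eea1, 9 of 10 members were called higher and 0 lower, over 154 kb, with a median of 1.59. The Eea1 region whose sequence is shown stood at 3.66, 2.74 and 3.40 log2 CPM in WT and at 5.96, 5.33 and 6.12 in KO, without overlap, a log2 fold change of 2.59 ± 0.32 (adjusted p = 7.17e-05). Etv6, an ETS repressor, had 8 of 16 members higher (median 1.02), Rassf6, a RAS association domain gene, 7 of 11 (1.33), and Prkca 6 of 13 (0.95). At the Rassf6 region shown, WT stood at 1.24, 0.85 and 1.52 and KO at 2.52, 2.47 and 2.67, or 1.47 ± 0.17. Prdm1 had 7 of 22 members higher and 0 lower, and its region shown stood at 2.40, 1.69 and 1.36 in WT and at 3.77, 2.62 and 3.23 in KO, or 1.38 ± 0.29 (adjusted p = 0.00295). The genotypes did not overlap at either region. Maf had 7 of 31 higher and 1 lower, Ahr, a receptor of environmental ligands, 5 of 11 higher, Ikzf2, which encodes Helios, 4 of 9, and Il10 3 of 13. Of all members 20.6% were called higher, and the shares at Maf and Il10 lay close to that. At the strongest Il10 region, WT stood at 4.13, 3.99 and 3.85 and KO at 4.92, 4.5 and 4.91, also without overlap, but the log2 fold change of 0.85 ± 0.20 (adjusted p = 0.00729) stayed under 1 and was not called. Without KO Treg replicate 1, 7 higher calls were left at Eea1, 6 at Etv6, 5 at Rassf6, 3 at Ahr and 0 at Prdm1, whose region shown then gave 0.99. Without WT Treg replicate 2, 2 were left at Maf and 2 at Prkca.

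The 3 members with the smallest p-values on the higher side were nearest to Tmem117, Kcnk9 and Igsf9b. A region 315 kb from Tmem117 stood at -0.37, -0.69 and 0.84 in WT and at 2.99, 3.24 and 2.57 in KO, or 3.29 ± 0.27. A region 224 kb from Kcnk9, a potassium channel, gave 3.13 ± 0.26, and the promoter region of Igsf9b, a synaptic adhesion gene, stood at 4.13, 3.47 and 4.17 in WT and at 5.98, 6.01 and 6.05 in KO, or 2.18 ± 0.17 (adjusted p = 1.02e-06). None of the 3 overlapped between genotypes. Igsf9b was also higher in KO Tconv without Treg, at 1.62 ± 0.15.

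Some of the members less open in KO with Treg gathered at other genes, which were chosen after their calls had been counted. Rbpj had 11 of 30 members lower and 0 higher (median -1.15), Itgb1 11 of 24 lower and 1 higher (-0.89), Plxnc1, a semaphorin receptor, 10 of 17 lower (-1.12), Id2 9 of 21 lower (-0.92) and Runx2 9 of 30 lower (-0.69). Il1rl1 and Ccl1 each had 7 lower, of 13 and 12 members, and Csf2 had 5 of 10. The Id2 region shown stood at 0.61, 1 and 0.29 log2 CPM in WT and at -1.72, -0.70 and -1.91 in KO, or -2.02 ± 0.31 (adjusted p = 0.000147). The Gzmb region stood at 0.50, 1.27 and -0.40 in WT and at -2.25, -0.82 and -0.24 in KO, or -1.74 ± 0.39, and here the highest KO library stood above the lowest WT library. At Cmklr1, a chemerin receptor, a region in an exon stood at 3.93, 4.62 and 3.92 in WT and at 1.57, 2.5 and 2.5 in KO, or -1.93 ± 0.27 (adjusted p = 0.000159), without overlap. A promoter region of Spg7, a mitochondrial protease, gave -2.61 ± 0.37, and the strongest Klrg1 region gave -0.82 ± 0.19, which was not called. Many of the lower calls at these genes rested on WT Treg replicate 2. Without it the Id2, Cmklr1 and Spg7 regions kept their calls, but 2 lower calls were left at Rbpj, 4 at Itgb1, 3 at Plxnc1, 1 at Id2, 1 at Il1rl1 and 0 at Runx2, Ccl1 and Csf2, and the Gzmb region fell to -1.30 and lost its call. The median log2 fold change of the members at each of these 8 genes (Gzmb aside) stayed below 0 in all 17 alternatives. Under library size, GC, loess and replicate block fits, the balance at each of these loci kept its direction.

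**Figure D4:**
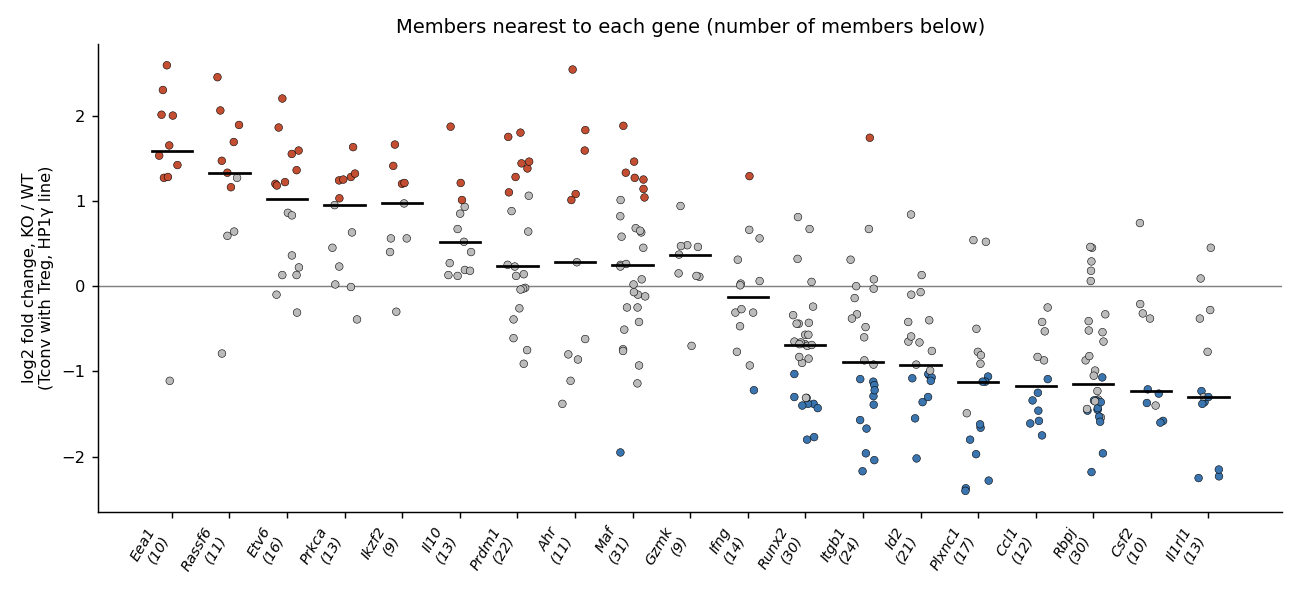
Log2 fold change between HP1γ KO and WT Tconv with Treg for each member (points) nearest to 19 genes, with the number of members under each name and the median as a line. Members called higher are red and those called lower blue, and the medians run from 1.59 at Eea1 to -1.30 at Il1rl1.

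Counted over the lists, calls in KO with Treg went both ways. Of all members 20.6% were called higher and 10.7% lower, against 6.48% and 5.38% of all peaks. Among effector cytokines and transcription factors the share called higher was below that of all members. Effector cytokines had 8 higher and 9 lower of 95, a balance that turned to 11 and 6 under loess and to 7 and 15 under library size. Transcription factors had 37 higher and 42 lower of 292, and this balance also turned, to 51 and 24 under loess and 48 and 27 after the GC correction. Homing receptors had 7 higher and 19 lower of 78, cytokine receptors 5 and 13 of 52, chemokine ligands 2 and 9 of 34 and inhibitory receptors 4 and 7 of 32. Single genes held many of the lower calls, with 11 at Itgb1, 7 at Il1rl1 and 7 at Ccl1. Without WT Treg replicate 2 these fell to 4, 1 and 0. The 7 lower calls of the inhibitory receptors were 3 at Lilrb4a, 2 at Klrg1 and 1 each at Cd200r1 and Entpd1. In the same list, the checkpoint receptor genes Pdcd1 (1 of 2 members, median 0.72), Havcr2 (1 of 3, 0.32) and Ctla4 (1 of 1, 1.64) each had a higher call and no lower one. Tigit had no call (0 of 2, 0.55). These genes were chosen after their values were seen, and their calls rested on single libraries. The Pdcd1 and Havcr2 calls were lost without WT Treg replicate 3, and the Ctla4 call without KO Treg replicate 1. The called Havcr2 region fell to 0.54 without KO Treg replicate 1. Costimulatory receptors had 3 higher and 2 lower of 16, cytotoxic genes 0 and 2 of 19 and naive-state genes 2 and 0 of 7. Of the 267 genes with 5 or more members, 225 had at least 1 call, with 112 higher only, 66 lower only and 47 both ways. With 20.6% of all members called higher and 10.7% lower, a call at most of these genes need not set them apart. At Gzmk none of 9 members was called, and the strongest gave 0.12 ± 0.13.

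Few members were called between WT Tconv with and without Treg. The median member stood at 1.27, 1.32 and 1.19 log2 CPM in WT Tconv and at 1.21, 1.47 and 1.44 in WT Tconv with Treg, and these ranges overlapped. Of 6651 members, 5 were called higher and 27 lower with Treg, against 0.0685% and 0.0699% of all peaks (0.138% in either direction), while 1621 (24.4%, against 20.3% of all peaks) had an unadjusted p under 0.05. The same replicate numbers deviated together in these groups, and with the number as a block 24 members were called higher and 169 lower, the 32 among them. The count fell to 0 without WT Treg replicate 1 or 3 or without WT Tconv replicate 2, fell to 8 without WT Tconv replicate 1, and rose to 290 and 205 without WT Tconv replicate 3 and WT Treg replicate 2. Loess and GC corrections gave 253 and 103 calls. The surplus of lower calls did not hold throughout, with 14 higher and 17 lower under library size alone, 10 and 10 with edgeR version 3 and 83 and 76 with DESeq2, and no call was made in a fit of these groups alone. The called regions included 2 at Epas1, which encodes the hypoxia factor HIF-2α. The first stood at 3.85, 4.47 and 3.87 in WT Tconv and at 2.73, 2.89 and 3.18 with Treg, without overlap, a log2 fold change of -1.34 ± 0.20 (adjusted p = 0.0261). Regions at Ccl17, a chemokine promoter, and Nfatc2, which encodes NFAT1, gave -1.68 ± 0.31 and -1.25 ± 0.25. On the higher side, a promoter region of Lpar3, a lysophosphatidic acid receptor, stood at 1.57, 1.5 and 1.48 without and at 3.21, 2.5 and 3.22 with Treg, or 1.36 ± 0.21. Regions at Tox2 (1.9 ± 0.39), Zc3h12c (1.45 ± 0.28) and Etv6 (1.43 ± 0.29) were also called higher.

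In HP1γ KO cells the calls between Tconv with and without Treg were more numerous. Of 6651 members, 1101 (16.6%) were higher and 397 (5.97%) lower with Treg, against 6.1% and 2.06% of all peaks (8.15% in either direction), with a median of 0.12 against -0.02. Calls fell from 1498 to 181 (129 higher and 52 lower) in a fit of these groups alone, to 693 with edgeR version 3, to 615 without KO Treg replicate 1 and to 974 without KO Tconv replicate 1, and rose to 2184 without KO Treg replicate 2. Higher regions included 9 of 10 members at Eea1, 7 of 22 at Prdm1, 6 of 11 at Ahr and 6 of 16 at Etv6. The region with the smallest p, 95.1 kb from Zfp36l1, a gene of an RNA-binding protein, stood at -0.91, 0.34 and -1.19 in KO Tconv and at 2.10, 1.60 and 1.98 with Treg, or 2.61 ± 0.25 (adjusted p = 9.88e-06). Lower regions included 8 members at Itgb1, 8 at Plxnc1 and 6 at Id2. A region of Arl15, a small GTPase gene, stood at 0.75, 0.74 and 1.06 without and at -0.81, -1.31 and -1.09 with Treg, or -2.01 ± 0.26, and the groups overlapped at neither region. These values share the KO Treg libraries with the comparison of genotypes. Summed start-site levels of CD8 T and NK cell markers were 13.9 to 16.2 CPM in KO Tconv and 9.65 to 11.6 CPM with Treg, and those of myeloid markers were 63.1 to 71.1 and 71.5 to 98.1 CPM, without overlap. B cell markers, at 10.5 to 15.5 and 15.3 to 18.8 CPM, overlapped. The part of these markers in the result was not tested.

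The larger number of calls in KO does not show that Treg acted differently in the genotypes, and the interaction itself was called for 1 member only, against 0.0014% of all peaks. At an unadjusted p under 0.05 there were 1036 members (15.6%, against 12.8% of all peaks). DESeq2 called 36 (0.553% against 1.14%), and without KO Treg replicate 2 edgeR called 108 (1.62% against 0.399%). The called region was the one in an intron of Trpm6, a magnesium channel. It stood at 3.10, 2.59 and 2.08 log2 CPM in WT Tconv, 1.97, 1.81 and 1.33 in KO Tconv, 1.5, 1.98 and 2.29 in WT Tconv with Treg and 3.27, 2.79 and 3.30 in KO Tconv with Treg. Without Treg every WT library stood above every KO library, and with Treg the order was reversed. The interaction was 2.42 ± 0.34 (adjusted p = 0.0300), the difference between a log2 fold change of -1.05 ± 0.24 without Treg and 1.36 ± 0.24 with Treg. The call was lost when any of 9 of the 12 Tconv libraries was left out, with values of 2.12 to 2.51.

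**Figure D5:**
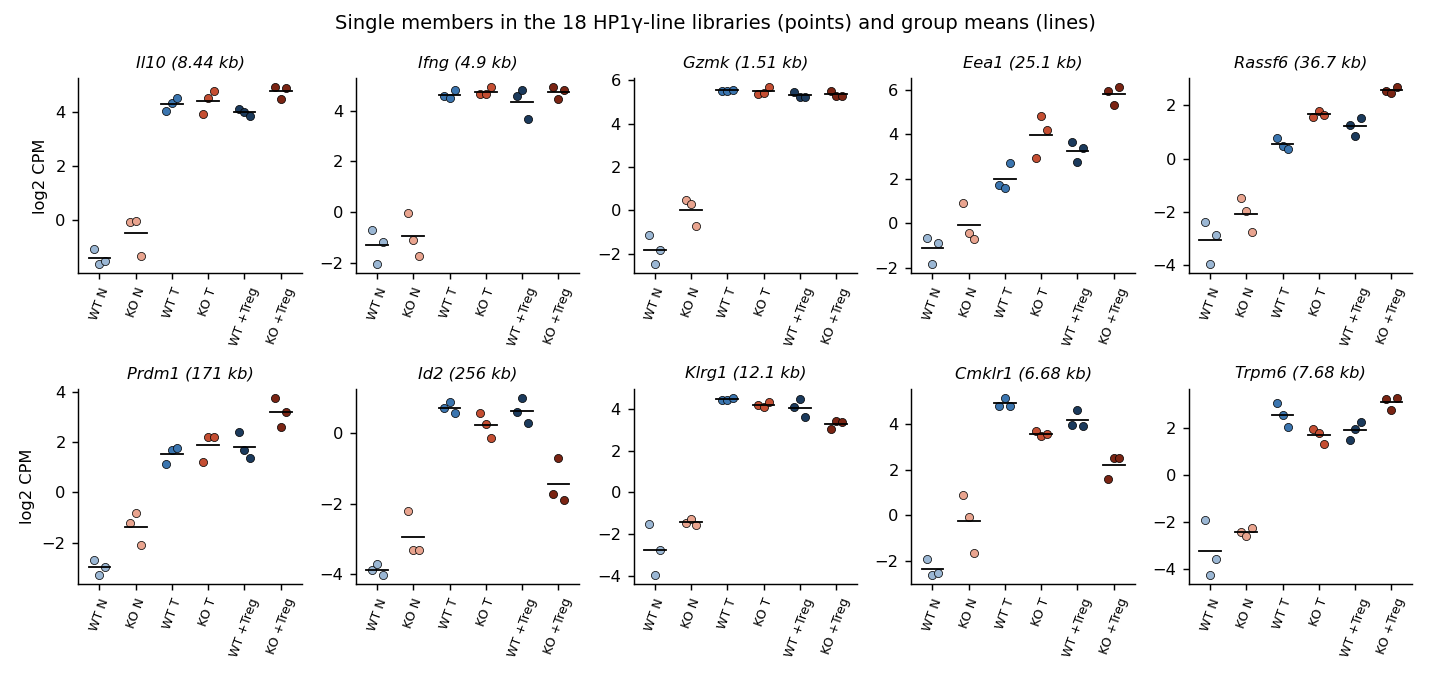
Log2 CPM of 10 members in the 18 HP1γ libraries (points) with group means (lines), each panel named by the nearest coding gene and the distance to its start site, where N is naive and T is Tconv. At Trpm6 the WT libraries stand above KO without Treg and below KO with Treg, while at Eea1 and Rassf6 KO stands higher in both.

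The members also opened in cells that lacked HP1α. The median member stood between -2.45 and -2.02 log2 CPM in the 3 HP1α KO naive libraries and between 1.04 and 1.46 in the 3 HP1α KO Tconv libraries. Of 6489 members tested, 6392 (98.5%) were higher in KO Tconv than in KO naive cells and 0 lower, against 23.3% and 19.1% of all peaks, with a median of 3.54 against -0.06. A further 162 members did not pass the filter on low counts in this fit. Marker levels moved here as well, from 31.9 to 37.6 up to 61.5 to 75.6 CPM for myeloid markers, from 6.81 to 7.36 up to 8.91 to 14.2 CPM for B cell markers and from 31.5 to 31.9 down to 22.2 to 25.9 CPM for CD8 T and NK cell markers, and their part in the result was not tested. The Eif3h region at the top of the list stood at -0.44, -1.78 and -1.21 in KO naive cells and at 5.90, 5.77 and 5.30 in KO Tconv, without overlap, a log2 fold change of 6.80 ± 0.32. The strongest Rbpj region stood at -0.88, -2.81 and -1.57 in KO naive cells and at 5.29, 5.35 and 4.62 in KO Tconv, or 6.86 ± 0.38.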

How the data were processed

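ATAC-seq was measured in 36 libraries from mouse CD4 T cells. The authors deposited whole-number read counts per peak. According to the submitters' processing notes and the study's methods, reads were trimmed with Trim Galore 0.6.7 and aligned to GRCm39 with BWA, and peaks were called per sample with HMMRATAC and merged. Read pairs were counted with featureCounts 2.0.3. A pair could count for more than 1 peak if it overlapped each by a set minimum fraction, so neighbouring peaks can share reads. Of 71512 intervals, 3 with no width were left out. Depth was the total of the deposited counts, and library totals limit the precision of each log2 CPM.

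Counts were fitted with edgeR 4.0.16 (R 4.3.3), with TMM scaling, the default filter on low counts and a quasi-likelihood test across all peaks. The 18 HP1γ libraries shared 1 fit over 6 groups, and the 6 HP1α KO libraries of naive cells and Tconv another. P-values were adjusted by Benjamini-Hochberg over all peaks tested, and a call needed a value below 0.05 and a log2 fold change beyond 1 in either direction. The study used an older edgeR with the same limits. The nearest coding start site came from the GENCODE annotation of GRCm39, and sequences came from that genome. Members, gene lists, motifs and tests were chosen with earlier results of these data known. Named regions were the 5 members with the largest rule difference, the strongest member (by the rule difference) of the 6 genes with most members, the strongest member of up to 4 genes per list, and up to 3 members with the smallest p in each direction of a comparison. A further 8 members, at genes with most calls in KO with Treg, were chosen after their values were seen, as were the loci named for their number of calls. Same-numbered replicates correlated in their deviations from group means for KO against WT with Treg (r 0.15 to 0.32) and for WT Tconv with against without Treg (0.20 to 0.29), and less evenly elsewhere. Alternatives were other scalings, filters, models and left-out libraries. A few regions and genes named by these rules are not reported here. The test script was checked on simulated data.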

Additional observations from a re-analysis of the deposited data

Results flagged for a closer look

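The Trpm6 region was noted because the effect of Treg differed between the HP1γ genotypes by the interaction test, with a log2 difference of 2.42. No call was made for it under library size scaling, in a fit of the 4 groups alone or with depth as a covariate.

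Both regions whose nearest coding gene is Ndufa4 were noted because every HP1γ WT library moved against the HP1α WT libraries between naive cells and Tconv. They fell by 4.49 and 6.59 on the log2 scale in the HP1γ line (-4.49 and -6.59), and the difference between the lines was not tested.

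The HP1α libraries from hosts given Treg entered no comparison. Their median member stood between 1.08 and 2.33 log2 CPM, at depths of 1.49 to 50.7 M reads (M, 1000000). The HP1α naive libraries stood at -2.45 to -2.02, but the WT ones among them entered the rule, which chose members low in them.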

How the results depend on the processing

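Opening in WT and in HP1α KO cells held under every alternative, with 6143 to 6408 and 6220 to 6521 members called when 1 library was left out, and the rule itself gave 5095 to 8638 members. Counts for HP1γ loss and Treg were less stable, and the cause was not tested. Fits limited to the groups compared called 568 members for KO in naive cells (5 in the report), 166 for KO in Tconv (810), 984 for KO with Treg (2083), 0 for Treg in WT (32), 181 for Treg in KO (1498) and 0 for the interaction (1). The quasi-likelihood method of edgeR version 3, added after the data had been seen, gave 276, 274, 20, 693 and 0 for KO in naive cells, KO in Tconv, Treg in WT, Treg in KO and the interaction. DESeq2 gave 1611, 159 and 36 for KO in naive cells, Treg in WT and the interaction. For KO in naive cells, loess and the replicate block with depth each gave 8. For Treg in WT, loess gave 253, GC 103, depth as a covariate 0, the replicate block 193, the block with depth 142 and the block with GC 309. For the interaction, library size and depth gave 0, the replicate block 3, the block with depth 4 and the block with GC 18. The replicate block changed no other count by over 1.5 times. Leaving out 1 library gave 3 to 6 calls for KO in naive cells, 278 to 1158 for KO in Tconv, 1021 to 2669 for KO with Treg, 0 to 290 for Treg in WT, 615 to 2184 for Treg in KO and 0 to 108 for the interaction. Over whole peaks, NFAT (52.7%) and NR4A (5.91%) letters were no more frequent in members than in all peaks, but away from start sites they were (52.6% against 46.9% and 5.86% against 5.07%). Of 1672 values of named regions under alternatives, 1558 stayed on the same side of the limits for a call, 107 lost a call, 7 gained one and 0 turned direction. Low naive counts limit each single fold change.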
